A study of Bos taurus with 4 samples.

Results

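Molecular chaperones of bovine blastocysts were examined on oligonucleotide arrays that compared embryos sired by bulls aged 10 months with embryos sired by bulls aged 16 months. The set held every embryo probe of the array whose gene symbol began with HSP, DNAJ or BAG and a digit, together with TCP1 and the numbered CCT genes, leaving out the basement membrane proteoglycan HSPG2. It comprised 127 of 43794 probes and 83 of 15229 genes with a symbol. Of these, 116 probes of 79 genes were bright enough to be tested, among 36325 probes and 13506 genes tested in all. All 83 symbols matched a gene of the current RefSeq annotation, in which the platform's HSPA1B is listed as a synonym of HSPA1A.

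All embryos were produced in vitro, by maturation, fertilisation and culture of oocytes from slaughterhouse ovaries. The groups differed in the age of the bull at semen collection, 10 or 16 months, and per the study design the semen of 4 bulls was taken at both ages. Every one of the 4 arrays carried amplified RNA of 1 blastocyst sample of either age, with the 10-month sample in Cy5 on replicates 1 and 2 and in Cy3 on replicates 3 and 4. The labels give no breed, number of embryos per sample or embryo sex, and they do not tie an array to a bull, so p-values measure only the spread between these arrays.

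Chaperones bind unfolded or partly folded proteins and keep them from aggregating. HSP70 proteins use ATP to hold and release such clients, DNAJ proteins deliver clients and start the ATPase step, and BAG proteins and HSP110 members exchange the nucleotide. HSP90 acts on late folding states of kinases and receptors, the ring complexes CCT and HSP60 with HSP10 enclose a client in a chamber, and small HSPs hold unfolded proteins without ATP. In the mouse, heat-inducible HSP70 genes are among the transcripts made at embryonic genome activation, and early embryos are known for a limited heat shock response before that stage.

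The sample identity was checked on marker genes. All 8 trophectoderm markers, 3 of 4 tested inner cell mass markers and 3 of 3 tested primitive endoderm markers were above background at both ages on all arrays. For cumulus and granulosa cells this held for 2 of 7 markers, for sperm and testis for 0 of 6, and for leukocytes and erythroid cells for 1 of 5 (PTPRC). Summed linear levels of the cumulus list were 924 to 1181 at 10 months and 852 to 1058 at 16 months, those of the sperm list 758 to 996 and 689 to 850, and those of the leukocyte and erythroid list 6608 to 11280 and 4845 to 7559. The leukocyte and erythroid sum rested mainly on 1 probe, as the list had a highest log2 intensity of 12.68 and a median of 7.04. The cumulus and sperm lists had medians of 6.90 and 7.03, so their sums hold mostly signal near background. The part of other cells in the results was not tested. In these bulk samples, fewer cells of a type and less RNA per cell cannot be told apart. No chaperone spot was set aside by the scan software, and the highest spot median of a chaperone was 49697 on a scale that ended at 65535.

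Chaperone probes were bright as a set. The median log2 intensity, averaged over both channels and the 4 arrays, was 9.52 for the 79 genes (each by its brightest tested probe) and 7.98 for all tested genes. Above background at both ages on every array were 65 of 79 genes (82.3%), against 66.3% of all tested genes, and 20 of the 79 lay in the brightest 10% of genes, above a log2 intensity of 12.19. The brightest probe was that of HSP90AA1, the inducible cytosolic HSP90, at 15.02, followed by the constitutive HSP70 gene HSPA8 at 14.82, the spliceosome-associated DNAJC8 at 14.27 and the chaperonin subunit CCT8 at 14.09. By family, the median was 13.36 for HSP90 (3 genes), 13.12 for HSP60 and HSP10 (2), 12.91 for CCT (9), 11.98 for DNAJA (3), 10.33 for HSP110 (2), 9.45 for DNAJC (26), 9.28 for DNAJB (11), 8.99 for BAG (5), 8.95 for HSP70 (10) and 7.44 for small HSPs (6). The 8 mitochondrial genes had a median of 11.12, the 10 of the endoplasmic reticulum 9.87 and the 49 of the cytosol or nucleus 9.35. Within families the spread was wide: HSP70 members ran from 6.78 for HSPA1L to 14.82 for HSPA8. Brightness is a property of the probe as well as of the RNA. Tested probes of 1 gene differed by a median of 1.99 in log2 intensity over the 24 genes with several, and the 2 probes of HSPD1 lay at 7.85 and 13.91. No order of RNA amounts was therefore read from these values.

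**Figure D1:**
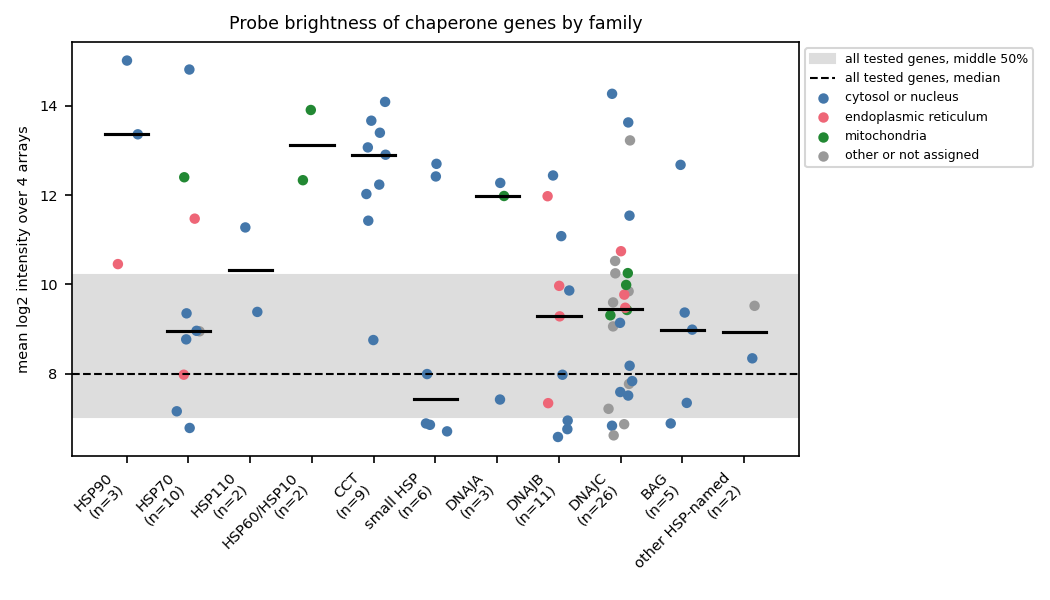
Mean log2 intensity over 4 arrays of the brightest tested probe of each chaperone gene, by family (points, coloured by compartment; bars, family medians), beside the median (dashed) and middle 50% (grey, 7.04 to 10.20) of all tested genes. HSP90, HSP60/HSP10 and CCT have medians of 12.91 to 13.36, above the grey band, while HSP70 and the DNAJ families spread below, across and above it.

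The faintest members included forms known from testis or muscle. HSPA12A (3 probes), HSPA6, DNAJB7 and HSPA4L had no tested probe. The remaining untested probes belonged to DNAJC27, DNAJC16, CCT6B, DNAJC18 and DNAJC24, each of which had another probe that was tested. Among tested genes, DNAJB13, which in mammals is a radial spoke protein of sperm tails, had a mean log2 intensity of 6.58 and exceeded background on 2 of the 10-month channels and 1 of the 16-month channels. HSPA1L, a testis-rich HSP70, was at 6.78 and likewise exceeded it on 2 and 1. HSPB6, a small HSP of muscle, was the single tested gene above background in 1 age only, on 2 arrays at 10 months and 0 at 16 months. Its mean level was 6.81 at 10 months and 6.59 at 16 months (limma, adjusted p = 0.957), and no fold is given because the 16-month signal was not above background.

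The age comparison asked whether blastocysts differed with the age of the sire, and no chaperone passed the test. With limma and Benjamini-Hochberg adjustment over all 36325 probes, 0 of 116 chaperone probes had an adjusted p under 0.05, where the background was 0% of all probes, and no adjusted p was below 0.957. Before adjustment, a limma p under 0.05 was reached by 3 of 116 probes (2.59%) higher at 10 months and 2 (1.72%) lower, against 2.05% and 1.92% of all probes. The ratio had the same sign on all 4 arrays in 10 of 116 probes (8.62%), 4 positive and 6 negative, against 9.37% of all probes. Each of these shares was near its background. The 95% interval of a chaperone probe had a median half-width of 0.30 in log2, or 1.23-fold. The interval excluded a 2-fold difference for 116 of 116 chaperone probes and a 1.5-fold difference for 103 (88.8%), against 99.4% and 87.2% of all probes. No chaperone probe had a fitted difference of 1.5-fold or more, which 69 of all probes (0.19%) did. All fold changes were computed after an offset of 50 intensity units was added, which understates the change of dim probes.

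Over the 79 genes, the median log2 ratio of 10 over 16 months was -0.02, with 35 genes positive and 44 negative, beside a median of -0.003 over all tested genes. Array by array the chaperone median was 0.003, -0.07, -0.12 and -0.05 on replicates 1 to 4. In 78 of 79 genes the 4 levels at 10 months overlapped the 4 levels at 16 months. They were separate in 1 of 79 (1.27%), a share near the 1.02% of all tested genes. That gene was DNAJB14, a J protein of the endoplasmic reticulum membrane. Its log2 levels were 7.18, 7.20, 7.22 and 7.27 at 10 months and 7.48, 7.32, 7.71 and 7.33 at 16 months on replicates 1 to 4, so every 10-month level lay below every 16-month level. The mean was 7.22 ± 0.04 against 7.46 ± 0.18 (SD, n = 4 each), the log2 ratio was -0.24 ± 0.13 (SE) and the adjusted p (limma) was 0.957. With spot means in place of medians and the set-aside spots kept, the DNAJB14 ratio was 0.10.

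The 3 HSP90 genes had age ratios between -0.08 and 0.04, with larger swings between arrays. Here, ± after a ratio is the SE of the fit over the 4 arrays. HSP90AA1 had log2 levels of 15.24, 15.41, 14.36 and 14.92 at 10 months and 14.83, 14.44, 15.42 and 15.54 at 16 months on replicates 1 to 4. The 10-month sample was the higher of the pair on replicates 1 and 2 and the lower on replicates 3 and 4, and the groups overlapped. Its log2 ratio was -0.08 ± 0.15 (SE; limma, adjusted p = 0.979). HSP90AB1, the constitutive cytosolic form, had the same sign on each array, with ratios of 0.45, 0.43, -0.52 and -0.21 and a fitted value of 0.04 ± 0.12. For HSP90B1, the form of the endoplasmic reticulum also known as GRP94, the brighter probe gave -0.06 ± 0.13 and the dimmer one 0.27 ± 0.16.

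Heat-inducible HSP70 genes were among the 3 of their family with the highest age ratios, without passing the test. HSPA1A was at log2 levels of 9.97, 9.14, 8.00 and 9.33 at 10 months and 8.09, 8.10, 9.21 and 9.85 at 16 months. Its 10-month sample was the higher on replicates 1 and 2, by 1.89 and 1.04, and the lower on replicates 3 and 4, by 1.21 and 0.51. The direction thus went with the dye orientation, which cannot be told apart here from a difference between the sample pairs. The fitted ratio was 0.30 ± 0.18 (SE; limma, adjusted p = 0.957). The probe that the platform names HSPA1B had array ratios of 1.12, 1.02, -0.68 and -0.04 and a fitted ratio of 0.36 ± 0.14 (limma, adjusted p = 0.957), among the 5 probes under 0.05 before adjustment. HSPA1A and HSPA1B are near-identical copies and their probes could not be assigned to separate genes here. HSPA12B, a distant HSP70 relative found in endothelium in other mammals, was named after its values were seen: it had ratios of 0.27, 0.09, 0.95 and 0.05, all positive, and a fitted value of 0.34 ± 0.16 (limma, adjusted p = 0.957).

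The constitutive HSP70 genes lay closer to 0. HSPA8, which uncoats clathrin vesicles and folds new proteins in the cytosol, had levels of 15.02, 14.94, 14.80 and 14.13 at 10 months and 14.93, 14.58, 15.02 and 15.01 at 16 months. Replicate 4 alone had a 10-month level far below the rest, and the ratio was -0.16 ± 0.14 (SE). HSPA9, the mitochondrial import motor also called mortalin, had levels of 12.30, 12.43, 12.56 and 12.20 against 12.54, 12.59, 12.35 and 12.19, a ratio of -0.04 ± 0.12. HSPA5 (BiP), the HSP70 of the endoplasmic reticulum, had levels of 11.95, 11.01, 10.55 and 12.24 at 10 months and 11.85, 10.97, 10.99 and 12.21 at 16 months. The ages were within 0.10 of each other on replicates 1, 2 and 4, the 10-month sample was 0.44 lower on replicate 3, and the ratio was -0.07 ± 0.13. Across the 10 tested HSP70 genes 6 ratios were positive and 4 negative, with a median of 0.02.

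**Figure D2:**
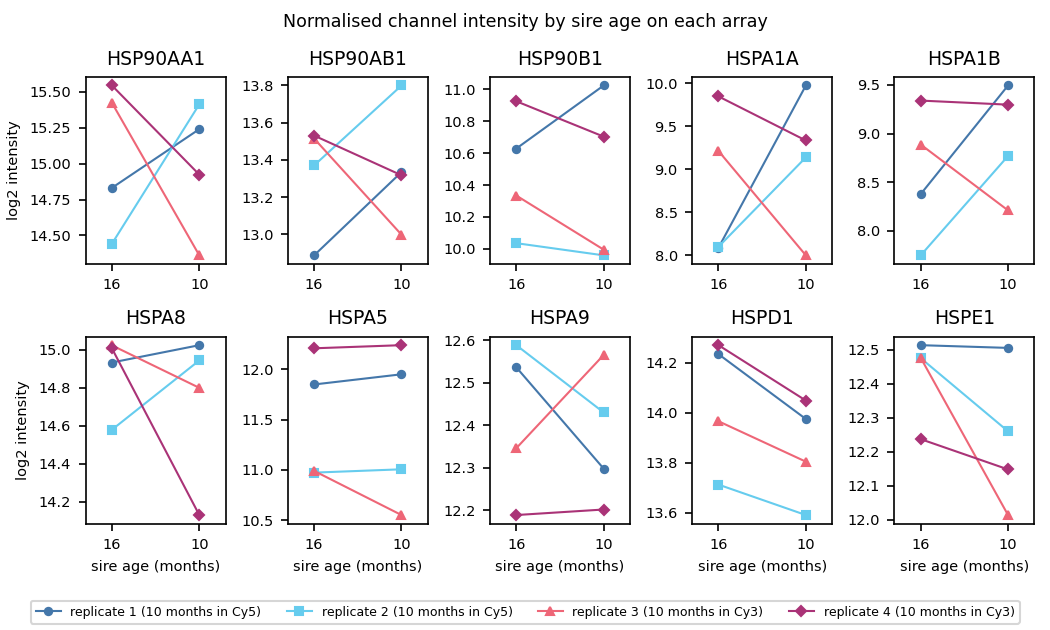
Normalised log2 intensity of 10 chaperone genes at a sire age of 16 and 10 months, with 1 line per array (blues, 10-month sample in Cy5; pinks, in Cy3). Lines for HSP90AA1, HSP90AB1 and HSPA1A slope up on replicates 1 and 2 and down on replicates 3 and 4, those for HSPD1 slope down on all 4 arrays, and HSPA5 differs more between arrays than between ages.

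HSP110 proteins, the nucleotide exchange partners of HSP70, pointed in opposite directions. HSPA4 had log2 levels of 9.31, 9.54, 8.79 and 9.24 at 10 months and 9.66, 9.50, 9.43 and 9.58 at 16 months. It was lower at 10 months on replicates 1, 3 and 4 and 0.04 higher on replicate 2, and the groups overlapped. The ratio of -0.32 ± 0.13 was the lowest of all 79 genes (limma, adjusted p = 0.957, under 0.05 before adjustment). HSPH1 had ratios of 0.32, -0.07, -0.33 and 0.68 and a fitted value of 0.15 ± 0.18.

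The mitochondrial chaperonin HSP60 (HSPD1) and its lid HSP10 (HSPE1) were lower at 10 months on every array, without passing the test. The 2 genes are neighbours in the RefSeq annotation, and in mammals they share a promoter. HSPD1 levels were 13.97, 13.59, 13.80 and 14.05 at 10 months and 14.23, 13.71, 13.97 and 14.27 at 16 months. The HSPD1 ratio on single arrays was -0.26 to -0.12, beside a range of 0.51 between the array levels (mean of both channels), and the groups overlapped. The ratio was -0.19 ± 0.11 (SE; limma, adjusted p = 0.957). HSPE1 levels were 12.51, 12.26, 12.01 and 12.15 against 12.51, 12.47, 12.48 and 12.24, a ratio of -0.19 ± 0.13, with a gap of 0.46 on replicate 3 and 0.01 on replicate 1. A dimmer HSPD1 probe gave 0.15 ± 0.13, of the opposite sign, and carried the strongest green-channel excess of all chaperone probes, a dye effect of -1.01.

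The cytosolic chaperonin CCT folds actin and tubulin in a ring of related subunits. Of its 9 tested genes 7 had a negative ratio, and the family median was -0.13, beside a median of -0.003 over all tested genes. CCT5 was the lowest at -0.26 ± 0.13 (limma, adjusted p = 0.957). Its levels were 13.34, 13.23, 13.09 and 13.46 at 10 months and 13.74, 13.44, 13.57 and 13.41 at 16 months, lower at 10 months on 3 arrays and 0.05 higher on replicate 4. CCT8 was negative on all 4 arrays, with ratios of -0.12, -0.17, -0.15 and -0.12, and a fitted value of -0.14 ± 0.11. TCP1, the alpha subunit, was at -0.03 ± 0.12. CCT6B, a subunit rich in testis in other mammals, had the highest ratio at 0.08 ± 0.12 by its brightest probe. Its dimmer probes gave -0.10 ± 0.13 and -0.0008 ± 0.12. The CCT median on replicates 1 to 4 was -0.28, -0.10, -0.01 and -0.12.

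Small HSPs ranged from -0.22 to 0.29. HSPB1 (HSP27), which binds unfolded proteins and the actin skeleton, had levels of 13.02, 12.90, 11.72 and 13.06 at 10 months and 12.66, 12.71, 12.49 and 13.11 at 16 months. The low value of replicate 3 at 10 months stood apart, and the ratio was -0.06 ± 0.15, with 0.14 ± 0.16 from its second probe. HSPB8, which works with BAG3 in selective autophagy, had ratios of -0.49, -0.17, 1.48 and 0.35 and a fitted value of 0.29 ± 0.19 (limma, adjusted p = 0.957). Without replicate 4, HSPB8 was at 0.57 (limma, adjusted p = 0.036) and HSPA12B at 0.56 (limma, adjusted p = 0.0342). In that fit 1858 of all probes (5.11%) passed, and replicate 3 was the lone array of its dye orientation, with its spread assumed to be that of the others. HSPB2 had the lowest ratio of the family, -0.22 ± 0.13, on a dim probe that exceeded background in 1 sample at 10 months and 3 at 16 months.

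DNAJ proteins, the J-domain partners of HSP70, were the most numerous, with 3 class A, 11 class B and 26 class C genes tested. The class A members DNAJA2 and DNAJA4, close relatives of bacterial DnaJ, were at -0.01 ± 0.12 and 0.14 ± 0.12. DNAJA3, the mitochondrial form, was at -0.27 ± 0.12 (limma, adjusted p = 0.957), with ratios of -0.35, -0.69, -0.12 and 0.07. In class B, DNAJB1, the main heat-inducible HSP40, had levels of 9.95, 9.80, 9.60 and 10.55 at 10 months and 10.41, 10.03, 9.13 and 9.45 at 16 months. The 10-month sample was the lower on replicates 1 and 2 and the higher on replicates 3 and 4, the reverse of HSPA1A. All 3 DNAJB1 probes had a positive ratio, from 0.15 to 0.22, and the brightest gave 0.22 ± 0.14. DNAJB4 had the highest ratio of the class, 0.35 ± 0.13 (limma, adjusted p = 0.957, under 0.05 before adjustment), on a dim probe that exceeded background in 3 samples at 10 months and 2 at 16 months. Its levels were 7.25, 6.91, 6.73 and 7.53 against 6.77, 6.29, 6.87 and 7.11. DNAJB6, a suppressor of protein aggregation, was at -0.13 ± 0.13.

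Class C, whose members share the J domain and little else, had 14 positive and 12 negative ratios and a median of 0.01. DNAJC15, an inner mitochondrial membrane protein, had 5 tested probes, all of them positive, from 0.13 ± 0.14 to 0.27 ± 0.12. The highest of these was under 0.05 before adjustment (limma, adjusted p = 0.957) and was positive on all 4 arrays. The brightest DNAJC15 probe had levels of 10.47, 10.04, 11.40 and 9.56 at 10 months and 10.29, 9.78, 10.74 and 9.67 at 16 months, a ratio of 0.25 ± 0.15. Replicate 3 was high at both ages and replicate 4 low. DNAJC11, a protein of mitochondrial cristae organisation, was at the other end of the class, with levels of 9.11, 9.49, 9.10 and 9.41 against 9.71, 9.63, 9.38 and 9.58. It was lower at 10 months on all 4 arrays, although the groups overlapped, and its ratio was -0.30 ± 0.13 (limma, adjusted p = 0.957, under 0.05 before adjustment). A second, dim DNAJC11 probe gave 0.06 ± 0.13. DNAJC8 was at -0.22 ± 0.14. DNAJC24, which acts in diphthamide synthesis and was named after its values were seen, was positive on all 4 arrays, at 0.22, 0.08, 0.13 and 0.09.

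BAG proteins release clients from HSP70. BAG3 had levels of 9.02, 9.36, 9.12 and 9.83 at 10 months and 8.77, 9.03, 10.35 and 9.43 at 16 months. Replicate 3 alone had a higher level at 16 months, by 1.23, and the fitted ratio was -0.06 ± 0.24, or 0.34 without that array. BAG2, an inhibitor of ubiquitination by the HSP70 partner STUB1, was at -0.13 ± 0.14, and its 4 probes were all negative, from -0.13 to -0.02. BAG4 had the highest ratio of the family, 0.07 ± 0.14. Among the HSP-binding proteins, HSPBP1, another exchange factor of HSP70, was at -0.12 ± 0.12 and HSPBAP1, which binds HSPB1, at 0.01 ± 0.16.

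**Figure D3:**
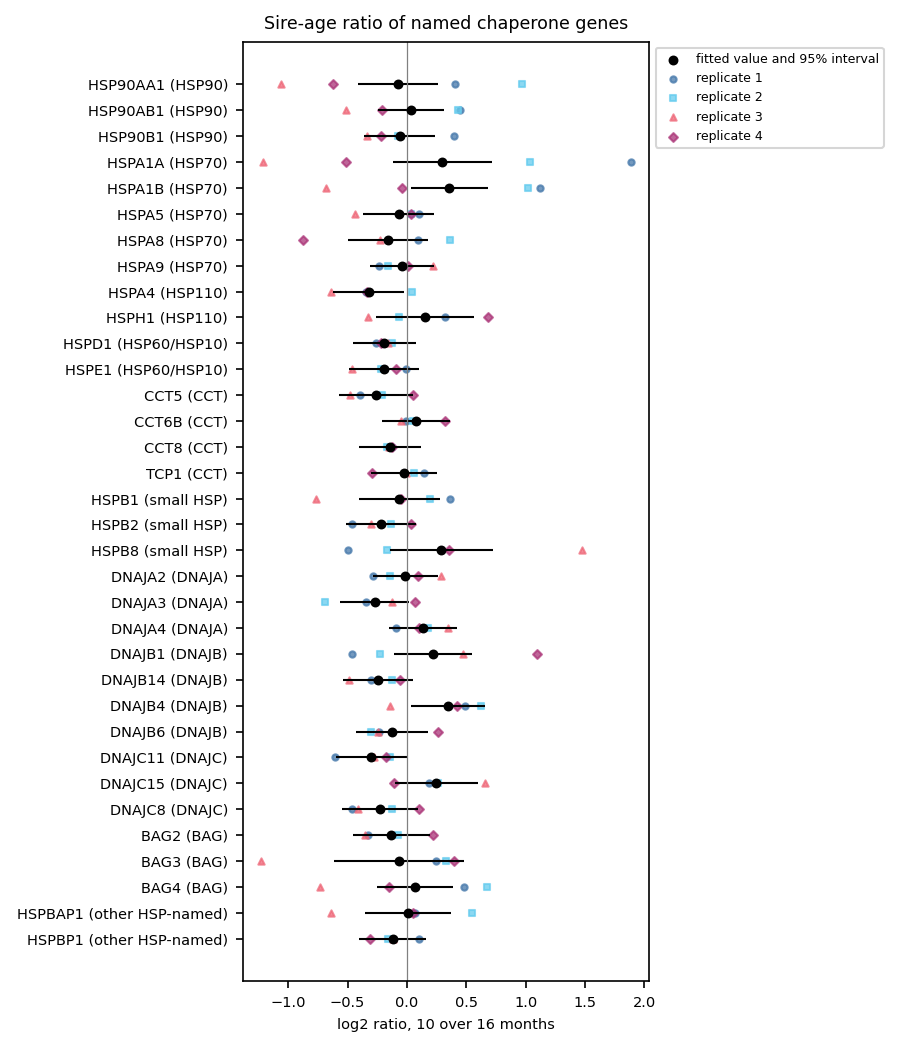
Log2 ratio of 10 over 16 months for 34 named chaperone genes, ordered by family (black, fitted value with its 95% interval; coloured symbols, the ratio on each of the 4 arrays). The fitted values run from -0.32 for HSPA4 to 0.36 for HSPA1B, and single arrays scatter up to 1.89 from 0 for HSPA1A.

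Compared by compartment, the 8 mitochondrial genes had a median ratio of -0.15, with 6 negative and DNAJC15 and DNAJC30 positive. On replicates 1 to 4 the mitochondrial median was -0.17, -0.15, -0.14 and -0.05. The 49 genes of the cytosol or nucleus had a median of -0.02, and the mitochondrial median minus theirs was -0.19, -0.11, -0.10 and 0.002 on the 4 arrays. With the mean over all tested probes of a gene the mitochondrial median was -0.07, and with spot means and the set-aside spots kept it was -0.08. Genes of the endoplasmic reticulum had a median of -0.07, at -0.05, -0.14, -0.33 and -0.04 by array. The members of no assigned compartment had 0.02. With 4 arrays an exact sign-flip test of such a difference cannot give a two-sided p below 0.125, so no p is given. HSP60/HSP10 and CCT were the families with the lowest medians, -0.19 and -0.13. Among the 20 chaperones in the brightest 10% of genes, 15 ratios were negative with a median of -0.08, beside 737 of 1351 and -0.03 for all genes of that brightness.

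**Figure D4:**
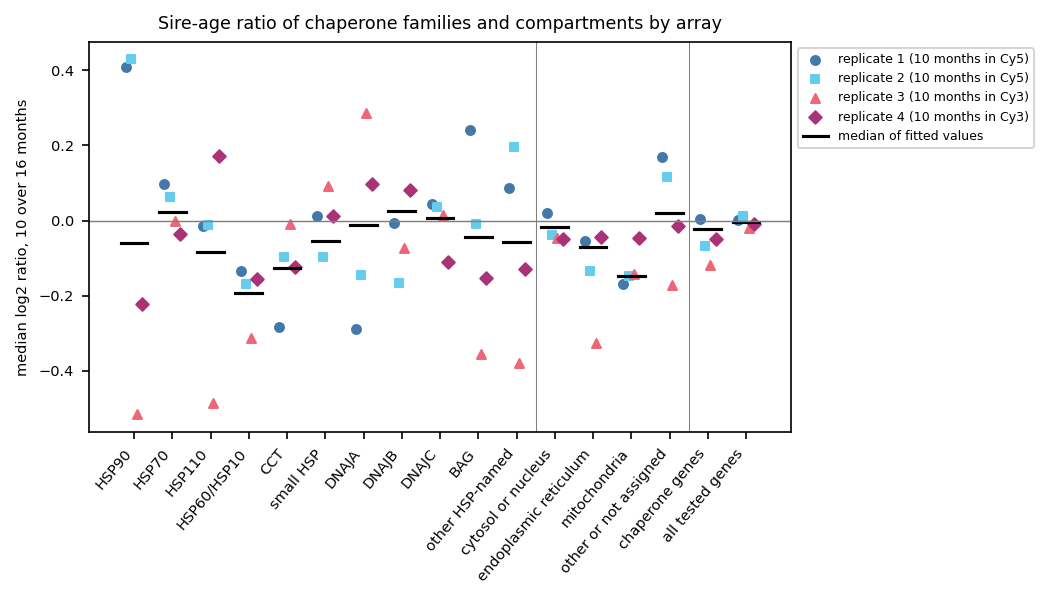
Median log2 ratio of 10 over 16 months by chaperone family, by compartment, over all chaperone genes and over all tested genes, on each of 4 arrays (coloured symbols) and as fitted (bars). HSP60/HSP10, CCT, mitochondrial and endoplasmic reticulum genes have a negative median on all 4 arrays. The median of the 3 HSP90 genes split by dye orientation, 0.41 and 0.43 on replicates 1 and 2 against -0.52 and -0.22 on replicates 3 and 4. HSP90B1 by its brighter probe did not, at 0.40, -0.08, -0.34 and -0.22.

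Fitted dye effects were wider than fitted age effects in this set. By the labels, no replicate was run in both dye orientations. A fitted dye effect therefore cannot be told apart from an age difference that differs between replicates 1 and 2 and replicates 3 and 4. The SD of the fitted dye effect (log2 Cy5 over Cy3) over the 116 chaperone probes was 0.28, from -1.01 to 1.16, and that of the age effect was 0.15, from -0.32 to 0.36. Over all tested probes the SDs were 0.22 and 0.16. The dye effect exceeded the age effect in size in 67 of 116 chaperone probes (57.8%), against 60.2% of all. HSPA1A had the highest dye effect, 1.16, followed by HSP90AA1 at 0.77 and HSPA1B at 0.72, while HSPB8 was at -0.62 and DNAJB1 at -0.56. The Cy5 over Cy3 ratio had the same sign on all 4 arrays in 29 of 116 probes (25%), 15 with Cy5 the higher, where 23.6% of all probes did. Ratios of 10 over 16 months correlated across the 116 probes at r = 0.54 between replicates 1 and 2 and 0.21 between replicates 3 and 4, and at -0.34 to -0.44 between arrays of opposite dye orientation. Over all tested probes the same values were 0.32, 0.12 and -0.14 to -0.30. Probes share a spot, a dye and an array in these values, so they describe the arrays and are not tested.

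**Figure D5:**
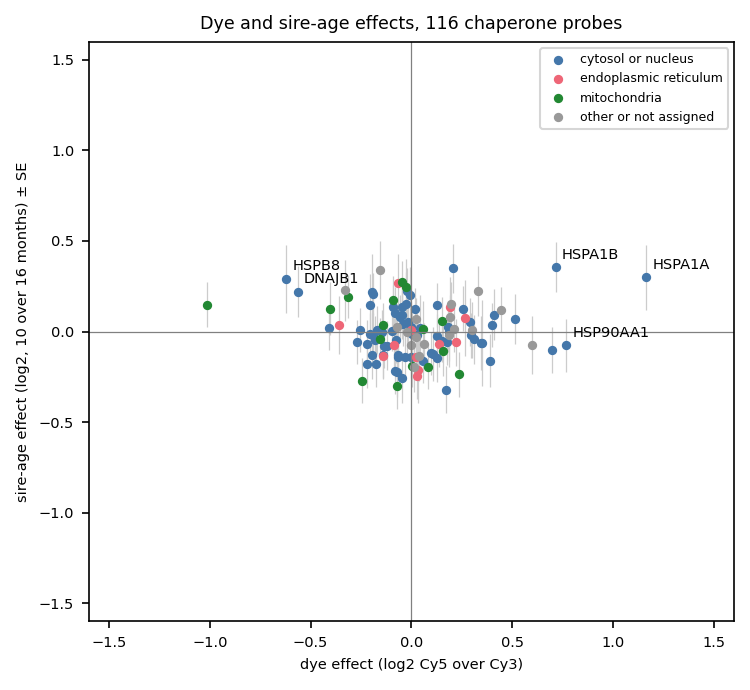
Fitted sire-age effect (log2, 10 over 16 months, bars ± SE) against fitted dye effect (log2 Cy5 over Cy3) for 116 chaperone probes, coloured by compartment, on axes of equal scale. Points spread from -1.01 to 1.16 along the dye axis and from -0.32 to 0.36 along the age axis.

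Several chaperones differed more between arrays than between ages. The array level is the mean of both channels, so it holds 1 sample of either age. HSPA5 was at 11.90, 10.99, 10.77 and 12.22 on replicates 1 to 4, a range of 1.45. HSP90B1, its partner in the endoplasmic reticulum, was at 10.83, 10.00, 10.16 and 10.82. SEC63, a J protein of the translocation channel outside the symbol rule, was at 12.58, 12.13, 11.91 and 12.77 by the brightest of its 3 tested probes. The dimmer SEC63 probes were not higher on replicates 1 and 4 than on replicates 2 and 3. Among the 10 chaperones of that compartment, HSPA5, HSP90B1, DNAJB11 and DNAJB12 were higher on replicates 1 and 4 than on replicates 2 and 3, and the other 6 were not. DNAJC3, for one, was at 9.75, 9.33, 10.22 and 9.77, and the folding factor CALR outside the rule had a range of 0.19. Outside the endoplasmic reticulum HSPA1A, HSPH1, HSPB1 and HSPD1, among others, were also higher on replicates 1 and 4 than on replicates 2 and 3. HSPA8, HSPA9 and CCT8, among others, were not, and the share over all genes was not counted. The median Cy3 signal of the arrays was 327, 265, 259 and 313, higher on replicates 1 and 4 as well. So was the Cy3 negative control, at 235, 197, 194 and 225. The median Cy5 signal was 122, 94, 151 and 108 and the Cy5 negative control 80, 61, 103 and 70, both highest on replicate 3. The part of these signals in the result was not tested. HSPA12B had the widest range of all chaperones, 1.80, with 7.72 on replicate 2 and 9.52 on replicate 3, and DNAJC15 had 1.45. A range over 1 occurred in 7 of 79 chaperone genes (8.86%) and in 8.77% of all tested genes. DNAJA4 was the flattest at 0.05.

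Probes of 1 gene often disagreed. Of the 24 chaperone genes with several tested probes, 14 had ratios of both signs, and the median range between probes was 0.15. The widest was that of DNAJC16, at -0.20 and 0.23. DNAJB1, DNAJC15, HSPB8, BAG1, BAG2 and CCT7 were among the 10 genes whose probes agreed in sign.

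Partners and regulators outside the symbol rule did not pass the test either. Of 50 genes listed as co-chaperones, protein-folding factors or heat shock factors, 47 were tested. None passed the adjusted limma test (smallest adjusted p = 0.957), 0 had an unadjusted p under 0.05 in either direction, and 20 ratios were positive and 27 negative with a median of -0.07. HSF1, the master factor of the heat shock response, was at -0.16 ± 0.11, and at 0.01 with spot means and the set-aside spots kept. STIP1 (HOP), which bridges HSP70 and HSP90, had the lowest ratio, -0.28 ± 0.18, and its second probe gave -0.02 ± 0.12. SIL1, the exchange factor of HSPA5, had the highest, 0.43 ± 0.23, on a probe with array ratios of 0.80, 1.69, 0.27 and -1.04, and its second probe gave -0.18 ± 0.12. TRAP1, the mitochondrial HSP90, was at 0.06 ± 0.15.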

How the data were processed

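The deposited scan files gave spot intensity at both dye wavelengths with local background, not normalised, per the file headers, for 45220 spots per array. The authors' deposited table held log2 ratios, and the submitters' processing notes name limma without its settings. The table's columns correlated with the ratios used here at r = 0.978 to 0.991 as Cy5 over Cy3, so scale and direction are known; the column medians were -0.02 to -0.01, and whether they were centred on purpose is unknown. It served as an alternative.

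For the present ratios (limma 3.58.1 in R 4.3.3), normexp with an offset of 50 was applied to spot medians without the 21 to 82 spots set aside per array, followed by loess within arrays with weight 0 for control spots. Background was exceeded where a spot median lay more than 2 median absolute deviations over the median of the negative control, and a probe was tested where this held in either channel on at least 2 arrays. Of 43794 embryo probes, 175 were left out for a set-aside spot and 7294 as dim. The model had a dye and an age coefficient with moderated variances (2 residual and 5.72 prior degrees of freedom). It was tested on data simulated from this same model, which cannot show whether the model holds for these arrays. Samples of both ages share each array, and no replicate number is shared between the dye orientations. Levels are channel values after loess and Aquantile scaling and are open to dye bias. A gene was represented by its brightest tested probe. The number of arrays limits the precision, and intensities give no depth.

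Families and compartments were assigned from textbook knowledge. The members, families, compartments and lists were chosen with earlier results of these data known. Named genes were those with an unadjusted p under 0.05, the highest, lowest and brightest of each family, and a list of standard chaperones. Of the partner list, HSF1, STIP1 and TRAP1 were named. Others, among them HSPA12B, HSPB6, DNAJC24, SEC63 and SIL1, were named after their values were seen. Alternatives varied the background correction, the normalisation, the spot summary, the dye term, the filter, the variance model, the sign of replicate 3, the probe rule and the arrays included. Probe sequences and genome positions were not used here.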

Additional observations from a re-analysis of the deposited data

Results flagged for a closer look

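Of 50 values checked per array (named genes, families and compartments), 4 had 1 array far from the other 3. Chance gives about 1 in 20 such cases. The log2 ratio of BAG3 was -1.23 on replicate 3 and 0.24 to 0.40 on the others. HSPA5 was at -0.44 on replicate 3 and 0.03 to 0.10 on the others. DNAJB6 was at 0.26 on replicate 4 and -0.31 to -0.23 on the others. The median of the genes of the cytosol or nucleus was 0.020 on replicate 1 and -0.05 to -0.04 on the others. Replicate 3 was also the array with the widest spread of chaperone ratios, an SD of 0.47 against 0.32 to 0.40 on the others. The same held over all tested probes, with an SD of 0.47 against 0.30 to 0.32. The part of that spread in these values was not tested.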

How the results depend on the processing

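Over the processing alternatives the count of chaperone probes past the adjusted limma threshold was 0, and leaving out arrays gave 0 to 2, the 2 being HSPA12B and HSPB8 without replicate 4 (1858 of all probes). Without replicate 3, 6 of all probes passed and no chaperone. The count at an unadjusted limma p under 0.05, 5 as reported (4.31%, against 3.96% of all probes), was 2 with an offset of 10 (1.72% against 3.89%), 0 with no dye term (0% against 2.2%), 1 with only probes that exceeded background in every channel (1.12% against 3.45%), 1 with a trended robust variance (0.862% against 3.85%) and 8 with the sign of replicate 3 turned (6.9% against 3.03%). It was 0, 2, 11 and 18 without replicates 1, 2, 3 and 4 (0%, 1.72%, 9.48% and 15.5%, against 1.26%, 1.78%, 6.39% and 18.1%). The mitochondrial median was -0.079 with spot means and set-aside spots kept and -0.073 with the mean over all probes, and -0.21 to -0.10 leaving out arrays. The HSP60/HSP10 median was -0.076 with replicate 3 turned and -0.11 with the mean over all probes. The HSP70 median was -0.061 with replicate 3 turned and -0.021 to 0.12 leaving out arrays, the DNAJB median -0.10 to 0.083 and the small HSP median -0.12 to 0.045. The medians of CCT, HSP60/HSP10 and the mitochondrial genes were negative under every alternative listed in the processing notes. Of the family, compartment and set medians under alternatives, 243 moved by less than the spread between arrays and 12 by more; of the gene ratios 541 did, 9 moved by more (CCT5, CCT8, DNAJB14, DNAJC15 and HSPD1), and HSPB8 passed the test without replicate 4. The cause of these shifts was not tested. Dropping the dye term, changing the variance model or changing the filter leaves the fitted ratio of a probe unchanged in this balanced design. Part of the 243 and 541 was therefore fixed in advance. The spread between arrays also holds the fitted dye effect, so items with a wide dye effect could hardly exceed it. Each array pairs both ages, so the ratios are paired by array, and no further replicate block was fitted. Signal near background limits HSPB2, HSPB6 and HSPA1L, where the offset shrinks ratios.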
